A study of Mus musculus with 25 samples.

Results

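The comparison concerns mouse embryonic stem (ES) cells that received the replication fork-blocking protein Tus together with a control small interfering RNA against luciferase (siLuciferase), in 2 BRCA1 genotypes. The members are all junctions in the 2 tables named for Tus, BRCA1del or BRCA1flox, and siLuciferase, and a library is the set of reads of 1 sequencing run. There were 2606 such junctions among 11867 in the series, 1425 from BRCA1del and 1181 from BRCA1flox. The labels give the genotypes as BRCA1del/exon11 and BRCA1flox/exon11, so both carry the allele written exon11 and differ in the other one, and they do not say how either allele was made or whether each genotype is 1 clone. All cells carried a 4-kb 1xGFP cassette in ROSA26, grew on a mouse embryonic fibroblast feeder layer, were transfected with Tus, nuclease and siRNA, and gave genomic DNA after 48 h. Cas9 with a guide 30 kb from the cassette made the bait break. Junctions were found by LAM-HTGTS, a sequencing assay of translocations. It copies whatever DNA was joined to the bait end from a primer beside the break, so that a read starts in the bait and runs into the joined DNA, here called the prey.

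Tus is a bacterial protein that binds short Ter elements and stops a replication fork that meets it from the blocking side. The cassette holds 6 Ter elements in a row, followed by the site of the homing endonuclease I-SceI. BRCA1 protects stalled forks, promotes resection of broken ends and is needed for homologous recombination at stalled forks, and cells without it join broken ends by other routes. A broken end can be joined as it is, after bases were trimmed from it, or at a few bases that both ends share, which is called microhomology and is used by end joining that depends on polymerase theta. In each read the bait end shows how many bases the Cas9 end lost, and the join shows shared or inserted bases. Loss from the joined cassette end was not measured.

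BRCA1del had 3 labelled samples and reads from 3 runs, here called B, C and D, with 602, 570 and 253 junctions. BRCA1flox had 2 labelled samples and reads from runs C and D, with 933 and 248 junctions. Only runs C and D hold both genotypes, so the tests compare genotypes within these runs. No read name or read sequence was repeated within a library. Joins differing in position, orientation, far end or bait end were counted as distinct. They were 587 of 602, 544 of 570 and 248 of 253 in BRCA1del runs B, C and D. In BRCA1flox runs C and D they were 913 of 933 and 248 of 248. Runs C and D of a genotype began with the same first bases. Of joins outside the polyA region in run D, 0 of 180 in BRCA1del and 0 of 216 in BRCA1flox recurred in run C of the same group (same position, orientation, far end and bait end). At most 2 of 180 and 3 of 216 recurred in run C of any 1 other Tus group. The tables pool replicates and duplicate removal is not given, so these counts cannot tell whether runs C and D are separate DNA. The BRCA1flox library of run D stood apart in 2 ways. It had few polyA joins (32 of 248 junctions) and many joins at microhomology, and results that rest on it are given for each run.

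The bait end is shown because every result on lost or shared bases is read against it. It was taken as a consensus of the deposited reads and is mouse sequence, 5′ to 3′ towards the break. The last 80 of the 145 bases from the primer to the cut are printed. Among reads of all groups that still matched the last bases of the bait, the most common next base was held by only 33.9%. The last base was therefore taken as the cut end. Capitals mark, in turn, the last 10 bases and 6 stretches that were shared with the array at recurrent joins.
bait end with its last bases marked: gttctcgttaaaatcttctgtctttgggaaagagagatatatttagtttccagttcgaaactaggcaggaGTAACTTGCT
bait end with shared ACTT: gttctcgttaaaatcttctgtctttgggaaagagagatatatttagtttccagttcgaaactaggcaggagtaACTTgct
bait end with shared TA: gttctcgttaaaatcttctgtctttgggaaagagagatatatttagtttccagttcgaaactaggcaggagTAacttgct
bait end with shared AAC: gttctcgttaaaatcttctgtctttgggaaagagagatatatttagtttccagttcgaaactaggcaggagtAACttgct
bait end with shared GTAACT: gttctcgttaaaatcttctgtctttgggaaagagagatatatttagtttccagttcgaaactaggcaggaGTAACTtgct
bait end with shared TTTAGTT: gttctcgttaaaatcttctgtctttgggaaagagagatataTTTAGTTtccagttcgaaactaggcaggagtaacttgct
bait end with shared GATATAT: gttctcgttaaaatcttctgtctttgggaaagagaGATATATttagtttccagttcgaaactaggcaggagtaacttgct

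The cassette was divided into 4 regions. The array is the window from 3025 to 3276 with the Ter elements and the I-SceI site, and 1 region lies left and 1 right of it. The polyA region starts at position 3617 with an XbaI site and ends with the cassette. All positions are cassette coordinates, not those of a genome build. EGFP runs from 2637 to 3604, so the array lies inside the EGFP gene. A join is called leftward where the joined DNA runs from the junction toward position 1, and rightward where it runs the other way. The body is everything left of the polyA region. In the 2 libraries of the group labelled EV (BRCA1del, siFANCM), whose abbreviation the labels do not spell out, 5 of 468 junctions (1.07%, Wilson 95% interval 0.457% to 2.48%) lay in the body and 1 of these in the array. This is the only background of body joins in the series, and it was measured in BRCA1del with another siRNA, in runs A and C. Run A holds neither siLuciferase table. The background in BRCA1flox or with siLuciferase was not measured.

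Body joins made up a smaller share of cassette junctions in BRCA1del than in BRCA1flox. They were 68.8% of junctions in BRCA1del run B, 59.6% in run C and 71.1% in run D, against 77.4% and 87.1% in BRCA1flox runs C and D. The means were 66.5% ± 6.07 (SD, n = 3) and 82.2% ± 6.87 (SD, n = 2), and the libraries did not overlap. The odds of a body join in BRCA1del were 0.418 times those in BRCA1flox (95% interval 0.339 to 0.515, stratified exact test over runs C and D, two-sided, adjusted p = 5.6e-16). Here and below the odds ratio is BRCA1del over BRCA1flox, common to both runs, and p-values were adjusted by Benjamini-Hochberg over 20 shares. These tests cover counting error only. An exact permutation of the 5 libraries cannot give a p below 0.1, and it gave 0.1 for the body share. The share is relative to polyA joins and is not a frequency of breakage per cell.

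Within the body, BRCA1del joins were more concentrated in the array. The array held 79.0%, 79.4% and 88.9% of body joins in BRCA1del runs B, C and D, against 67.9% and 71.8% in BRCA1flox runs C and D. The odds ratio was 2.09 (1.59 to 2.77, stratified exact test, adjusted p = 1.3e-07), and it was 1.83 in run C and 3.14 in run D. All 3 BRCA1del libraries lay above both BRCA1flox libraries.

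The stretch left of the array showed the opposite. Few joins lay right of the array (18 in BRCA1del and 12 in BRCA1flox), so this largely follows from the array share and is not a separate result. It held 17.0%, 14.8% and 9.74% of leftward body joins in BRCA1del (61 of 359, 45 of 304 and 15 of 154) and 24.0% and 21.6% in BRCA1flox (154 of 643 and 43 of 199). The odds ratio was 0.505 (0.361 to 0.698, stratified exact test, adjusted p = 4.5e-05). The leftward joins that did lie there had median distances from the array of 149, 73 and 53 bp in BRCA1del runs B, C and D against 257 and 189 bp in BRCA1flox. The fewer rightward joins there went the other way, with medians of 457, 825.5 and 953 bp in BRCA1del (20, 14 and 4 joins) against 307.5 and 384.5 bp in BRCA1flox (70 and 14 joins). Joins within 100 bp of the array were 24 of 61, 26 of 45 and 8 of 15 in BRCA1del and 40 of 154 and 17 of 43 in BRCA1flox. The libraries overlap in this last share (39.3% in BRCA1del run B, 39.5% in BRCA1flox run D), and it was not tested.

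Rightward joins in the array were the feature with the largest odds ratio. They were 35 of 327 array joins in BRCA1del run B (10.7%), 21 of 270 in run C (7.78%) and 22 of 160 in run D (13.8%). In BRCA1flox they were 9 of 490 in run C (1.84%) and 2 of 155 in run D (1.29%). The groups did not overlap, and the odds ratio was 6 (2.98 to 13.1, stratified exact test, adjusted p = 7.3e-08). It was 4.50 within run C and 12.1 within run D, where BRCA1flox rests on 2 joins. Over the whole body the rightward odds ratio was 1.19 (0.831 to 1.70, stratified exact test, adjusted p = 0.41). Rightward joins left of the array were 70 and 14 in BRCA1flox runs C and D and 20, 14 and 4 in BRCA1del runs B, C and D.

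**Figure D1:**
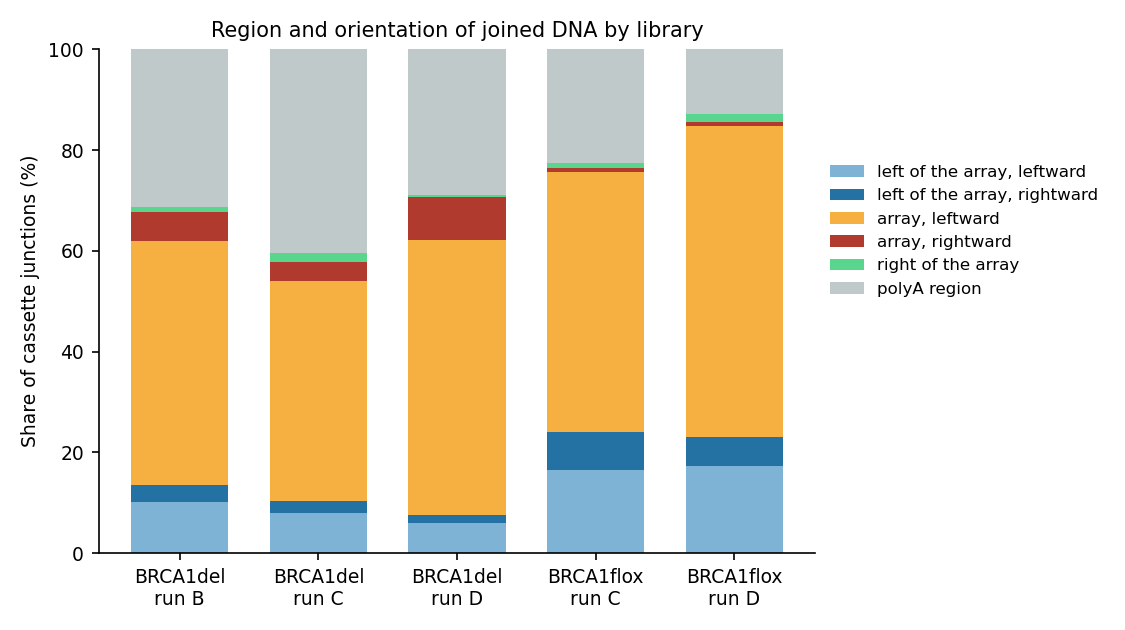
Share of cassette junctions (percent, 0 to 100) in each region and orientation, 1 stacked bar per library. The dark red block of rightward array joins is taller in the 3 BRCA1del bars (35 of 602, 21 of 570 and 22 of 253 junctions) than in the 2 BRCA1flox bars (9 of 933 and 2 of 248). The blue blocks left of the array are taller in BRCA1flox.

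The bait end was more often whole in BRCA1del. Bases missing from the bait end were counted from the cut end shown above, with bases shared by both ends given to the bait. The bait end kept every base in 44 of 326 array joins in BRCA1del run B (13.5%), 36 of 270 in run C (13.3%) and 31 of 160 in run D (19.4%). In BRCA1flox this held for 21 of 490 in run C (4.29%) and 6 of 155 in run D (3.87%). The libraries did not overlap, and the odds ratio was 4.05 (2.49 to 6.74, stratified exact test, adjusted p = 7.9e-09), 3.43 in run C and 5.94 in run D. This share and the next were added after the loss of bases had been seen by genotype. The difference passed the stratified exact test in leftward joins alone (3.69), in joins that are not blunt (3.61), with shared bases given to the prey (6.06) and with up to 2 missing bases counted as whole (2.02).

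At the other end of the scale, long losses were rarer in BRCA1del. More than 50 bases were missing in 9.20%, 15.2% and 7.5% of array joins in BRCA1del runs B, C and D, against 22.7% and 32.9% in BRCA1flox runs C and D. The odds ratio was 0.412 (0.287 to 0.586, stratified exact test, adjusted p = 7.0e-07). It differed between the runs (likelihood-ratio test of a binomial logistic model, p = 0.00065), at 0.612 in run C and 0.166 in run D. The median loss was 8, 12.5 and 8 bp in BRCA1del and 13 and 16 bp in BRCA1flox, and the largest loss seen was 119 bp. Longer losses reach the primer and could not be seen. The share of joins that lost more than 10 bases, the limit set for the first tests, was 46.3%, 51.9% and 42.5% against 54.5% and 59.4% (odds ratio 0.753, 0.584 to 0.972, stratified exact test, adjusted p = 0.042). It rests on run D, and within run C the odds ratio was 0.9 (stratified exact test, adjusted p = 0.58).

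**Figure D2:**
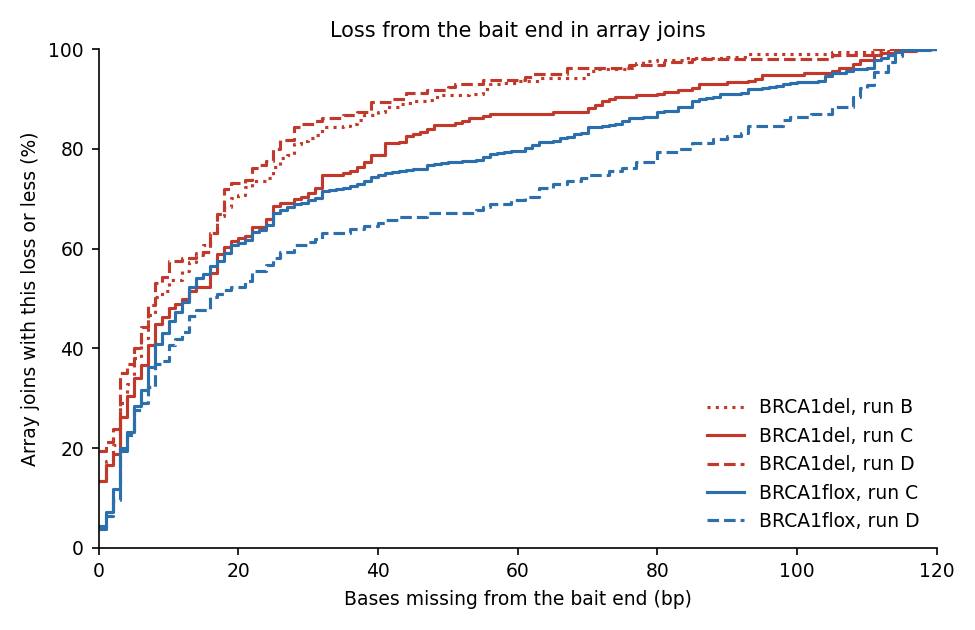
Cumulative share of array joins (percent) by the number of bases missing from the bait end (bp), 1 line per library. At 0 bp the BRCA1del lines start between 13.3% and 19.4% and the BRCA1flox lines at 4.29% and 3.87%, and at 50 bp the BRCA1flox lines have 22.7% and 32.9% of joins still to come.

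The state of the bait end differed by region. The shares of whole bait ends left of the array and in polyA joins were added after the values were seen. Left of the array the bait end was whole in 13 of 81, 7 of 59 and 4 of 19 joins in BRCA1del runs B, C and D (16%, 11.9% and 21.1%), against 7 of 224 and 2 of 57 in BRCA1flox (3.12% and 3.51%). The odds ratio was 4.82 (1.74 to 13.7, stratified exact test, adjusted p = 0.0019). In polyA joins of the same libraries it was whole in 31.9%, 21.7% and 19.2% in BRCA1del and 28.0% and 18.8% in BRCA1flox, where the ranges overlap (odds ratio 0.756, 0.497 to 1.15, stratified exact test, adjusted p = 0.23). The genotype odds ratio in the array was 5.38 times that in the polyA region (2.91 to 9.97, binomial likelihood-ratio p = 4.4e-08). Joins to the polyA region start from the same bait break.

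Rightward array joins had whole bait ends in 6 of 35, 8 of 21 and 6 of 22 joins in BRCA1del, and in 2 of 9 and 0 of 2 in BRCA1flox. Among leftward array joins the counts were 38 of 291, 28 of 249 and 25 of 138 in BRCA1del (13.1%, 11.2% and 18.1%), and 19 of 481 and 6 of 153 in BRCA1flox (3.95% and 3.92%). Losses over 50 bp were found in 82 of 678 leftward (12.1%) and 1 of 78 rightward joins (1.28%) in BRCA1del. In BRCA1flox they were found in 161 of 634 (25.4%) and 1 of 11 (9.09%). Most array joins were leftward, and the difference between orientations was not tested.

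Blunt joins, with neither shared nor inserted bases, were commoner in BRCA1del. They were 15%, 15.6% and 19.4% of array joins in BRCA1del runs B, C and D (49 of 326, 42 of 270 and 31 of 160), against 9.80% and 7.10% in BRCA1flox (48 of 490 and 11 of 155). The odds ratio was 2.02 (1.37 to 2.99, stratified exact test, adjusted p = 0.00072), 1.70 in run C and 3.13 in run D, and the libraries did not overlap. With each position and orientation counted once per library it was 1.62 and did not pass (stratified exact test, adjusted p = 0.15). Left of the array the blunt share was 18.5%, 15.3% and 26.3% against 6.70% and 10.5% (odds ratio 2.64, 1.17 to 5.80, stratified exact test, adjusted p = 0.027), a result that passed in neither run alone. The blunt share left of the array was added after the values were seen.

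Whole bait ends and blunt joins overlap in part. Of joins with a whole bait end, 38 of 111 in BRCA1del (34.2%) and 6 of 27 in BRCA1flox (22.2%) were blunt. Of joins that had lost at least 1 base, 84 of 645 (13.0%) and 53 of 618 (8.58%) were blunt, and among these the odds ratio was 1.70 (stratified exact test, adjusted p = 0.023). The blunt difference was therefore not limited to joins with a whole bait end.

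Joins with exactly 1 shared base were also commoner in BRCA1del, at 26.1%, 19.3% and 31.2% in runs B, C and D against 16.7% and 14.2% (odds ratio 1.56, 1.13 to 2.15, stratified exact test, adjusted p = 0.0094). This share too was added after the values were seen. The difference differed between runs (binomial likelihood-ratio p = 0.014) and rested on run D, since within run C the odds ratio was 1.19 (exact test, adjusted p = 0.53). It did not pass over the span of the Ter elements (1.44, stratified exact test, adjusted p = 0.06) or in joins that had lost at least 1 base (1.39, adjusted p = 0.1).

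Microhomology of at least 2 bp gave a different picture in each run. It was present in 43.3%, 43.0% and 37.5% of array joins in BRCA1del runs B, C and D, and in 44.3% in BRCA1flox run C and 69.0% in BRCA1flox run D. The odds ratio over both runs was 0.645 (0.498 to 0.836, stratified exact test, adjusted p = 0.0014). The difference was -1.32 percentage points in run C and -31.5 points in run D, and the runs differed (binomial likelihood-ratio p = 6.7e-06). Without run D the odds ratio was 0.948 (0.694 to 1.29, exact test, adjusted p = 0.82). The lower share in BRCA1del thus rests on the BRCA1flox library of run D. Shared stretches of at least 4 bp were 9.82%, 9.63% and 8.12% against 10.2% and 17.4% (odds ratio 0.704, 0.453 to 1.08, stratified exact test, adjusted p = 0.15). This too turned on the run, at 0.938 without run D and 0.420 without run C, where it passed (exact test, adjusted p = 0.026).

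Pooled over runs, the microhomology share was higher in joins that had lost more bases. In BRCA1del it was present in 9.01% of 111 joins with a whole bait end, 42.7% of 286 that lost 1 to 10 bases, 50% of 276 that lost 11 to 50 and 56.6% of 83 that lost more. In BRCA1flox the shares were 33.3% of 27, 37.8% of 259, 54.8% of 197 and 67.3% of 162. The order did not hold in every library. In BRCA1flox run D the shares were 66.7% (4 of 6), 61.4%, 70.7% and 76.5%, and in BRCA1del run D they were 3.23%, 49.2%, 41.1% and 50%. The 33.3% in BRCA1flox joins 5 of 21 in run C and 4 of 6 in run D, and none of these differences was tested.

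Insertions, bases at the join that match neither end, varied more between runs than between genotypes. They were present in 15.6%, 22.2% and 11.9% of array joins in BRCA1del runs B, C and D and in 29.2% and 9.68% in BRCA1flox runs C and D (odds ratio 0.776, 0.562 to 1.07, stratified exact test, adjusted p = 0.16). Run C had the higher value in both genotypes. The result depended on how runs and positions were counted. Pooled over all runs the odds ratio was 0.64 and passed (exact test, adjusted p = 0.0017), without run C it was 1.26, and with each position and orientation once it was 1.49, neither of which passed. Insertions of at least 10 bases were 1.53%, 4.81% and 2.50% against 6.73% and 1.94% (odds ratio 0.773, 0.400 to 1.44, stratified exact test, adjusted p = 0.55), and the median insertion was 2 or 3 bases in every library.

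**Figure D3:**
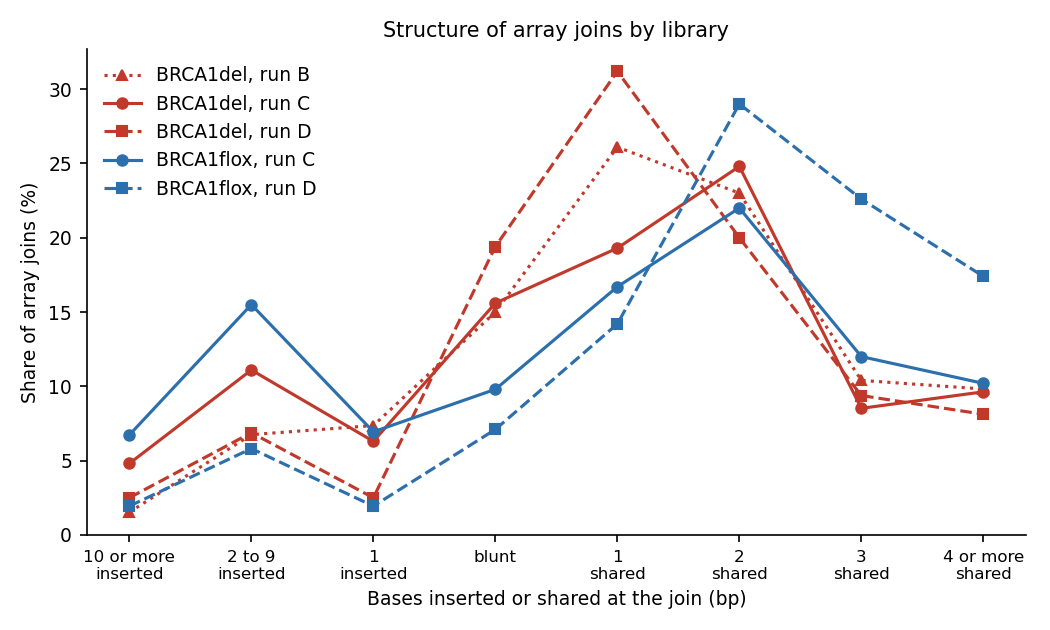
Share of array joins (percent) by bases inserted or shared at the join (bp), 1 line per library. Blunt joins are higher in the 3 BRCA1del lines (15% to 19.4%) than in the 2 BRCA1flox lines (9.80% and 7.10%), and the dashed blue line, BRCA1flox run D, is the highest at 2, 3 and 4 or more shared bases.

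The most used shared stretches occurred in both genotypes. The 4-base stretch ACTT, which lies 3 bases from the cut end, was used in 9, 6 and 6 array joins in BRCA1del runs B, C and D and in 13 and 11 in BRCA1flox runs C and D. All 45 of these joins were leftward, all had lost exactly 3 bases, and they met the array at 12 positions. The pair TA was used in 45 BRCA1del joins (5.95%) and 24 BRCA1flox joins (3.72%), most often with 7 bases lost (33 of 69). The pair TT was used in 42 and 35 joins, AC in 20 and 18, AAC in 15 and 10, and CA in 10 and 14. These 6 are the 5 most used stretches of each genotype.

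The longest shared stretches were 7 bases, and those of at least 6 bp were singled out after their values were seen. TTTAGTT, 32 bases from the cut end, was used in 8 joins of each genotype, spread over all 5 libraries. GATATAT, 38 bases from the end, was used in 3 BRCA1del and 2 BRCA1flox joins, also leftward. The 6-base stretch GTAACT, 4 bases from the end, was used in 3 BRCA1del joins and 1 BRCA1flox join, and all 4 were rightward. A Ter element holds GTAACT only when read rightward, and ACTT and TTTAGTT only when read leftward. For joins in a Ter element the orientation at these stretches is therefore set by the sequence. No count of a single stretch was tested between genotypes.

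Positions inside the array could be read only where a read crossed the array into unique sequence by at least 20 bp, because it consists of a repeated block of 3 Ter elements. Such placed reads were 75.7%, 65.5% and 76.1% of leftward array joins in BRCA1del and 59.3% and 66.0% in BRCA1flox. A join deeper in the array needs a longer read to be placed, and the median aligned length of array joins was 161, 123 and 125.5 bp in BRCA1del and 131.5 and 142 bp in BRCA1flox. The part of read length in the positions below was not tested.

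Placed leftward joins lay nearer to the array start in BRCA1del. Their median position was 3071, 3073 and 3069 in runs B, C and D, at or near the end of the first Ter element (3049 to 3071). In BRCA1flox it was 3089 and 3078, both in the next one (3077 to 3099). Joins up to the end of the first Ter element were 51.1%, 47.9% and 54.3% of placed leftward joins in BRCA1del and 33.0% and 41.6% in BRCA1flox. This limit was added after the values were seen, unlike the end of Ter element 3 given below. For the first Ter element the odds ratio was 1.79 (1.29 to 2.50, stratified exact test, adjusted p = 0.0011), 1.86 in run C and 1.66 in run D, where it did not pass alone (adjusted p = 0.11). The groups did not overlap. With each position and orientation counted once per library it was 1.53 and did not pass (0.932 to 2.51, stratified exact test, adjusted p = 0.15). With the deposited positions of all leftward array reads, placed or not, the shares were 39.9%, 34.5% and 44.2% against 21.4% and 28.1%. The copy of the repeat is not certain for reads that were not placed.

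Ter elements 2 and 3 took a larger share in BRCA1flox, 46.3% and 43.6% of placed leftward joins against 32.1%, 33.7% and 24.8% in BRCA1del. Up to the end of Ter element 3 (position 3127), the limit set for the first tests, the share was 89.6%, 86.5% and 89.5% in BRCA1del and 86.0% and 93.1% in BRCA1flox (odds ratio 0.927, 0.559 to 1.55, stratified exact test, adjusted p = 0.82). Placement favours joins near the array start. By deposited position over all leftward array reads, Ter elements 4 to 6 held 26.8%, 34.5% and 21.7% in BRCA1del and 39.5% and 33.3% in BRCA1flox. Of placed joins they held 4.76% to 12.3% in the 5 libraries. For reads that were not placed the copy of the repeat is not certain, so the values over all reads may assign joins to the wrong copy.

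**Figure D4:**
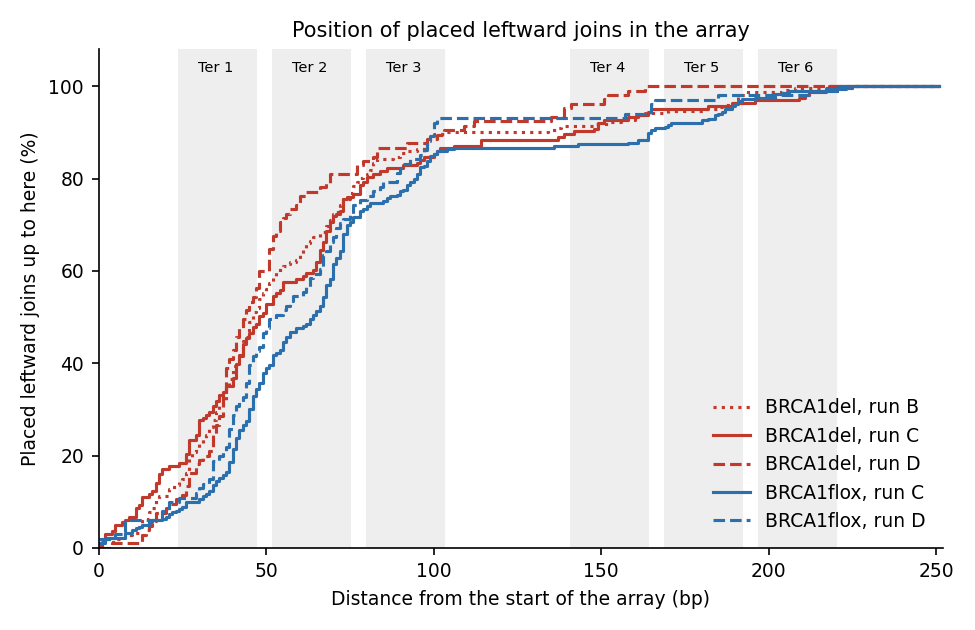
Cumulative share of placed leftward joins (percent) by distance from the array start (bp), 1 line per library, with the Ter elements shaded. At the end of Ter 1 the BRCA1del lines have reached 47.9% to 54.3% and the BRCA1flox lines 33.0% and 41.6%, and at the end of Ter 3 all lines lie between 86% and 93.1%.

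No single position held more than a small part of the array joins. The most used read-called position in BRCA1del was 3062, leftward, in Ter element 1, with 6, 3 and 7 joins in runs B, C and D (2.11% of array joins) and 4 and 4 in BRCA1flox (1.24%). These counts include reads that could not be placed, whose copy of the repeat is not certain. Of the joins at 3062, 16 of 16 in BRCA1del and 7 of 8 in BRCA1flox were placed. Position 3067, also in Ter element 1, held 13 joins in BRCA1flox (11 placed) and 9 in BRCA1del (9 placed). Position 3099, the last base of Ter element 2, held 12 joins in BRCA1flox run C and 0 in run D, all placed. At 3188, in the other copy of the repeat, only 3 of 13 BRCA1flox joins and 1 of 5 BRCA1del joins were placed, so most of them cannot be assigned to Ter element 4. Other positions among the 5 most used of each genotype were 3064, 3065, 3066, 3074, 3075 and 3187.

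Rightward placed joins lay at the far side of the array. In BRCA1del the median position was 3224, 3226 and 3216 in runs B, C and D, and 15 of 21, 8 of 11 and 9 of 11 lay in Ter elements 4 to 6 (3166 to 3244). A rightward read is placed when it crosses the right edge of the array, so these positions favour that side, and 35 of 78 rightward joins could not be placed.

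Left of the array no position recurred often. The most used were 3001, with 4 joins in BRCA1del and 0 in BRCA1flox, and 3023, with 1 and 5, each at most 2.52% of the joins there.

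None of the 3 polyA shares tested passed over both runs, and the microhomology share went opposite ways in them. Of 734 polyA joins, 337 (45.9%) lay within 5 bp of 4 position and orientation pairs, namely 3910 leftward, 3728 rightward, 3855 rightward and 3843 leftward, in deposited coordinates. The share was 45.7%, 47.4% and 46.6% in BRCA1del and 45.5% and 37.5% in BRCA1flox. At 3910 all 127 joins held bases between the bait and the cassette match, with a median of 24. Of 268 polyA joins with at least 10 such bases, 109 ended in the same 10 bases, against 2 of 58 in the array. Whether all joins placed in the polyA region come from the cassette, and not from another polyA-bearing sequence in the cells, was not tested. This limits the structures of polyA joins and the body share, which has polyA joins in its denominator.

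Blunt joins were 14.9%, 11.7% and 13.7% of polyA joins in BRCA1del and 14.7% and 9.38% in BRCA1flox (odds ratio 0.859, 0.503 to 1.47, stratified exact test, adjusted p = 0.67). The blunt odds ratio in the array was 2.36 times that in the polyA region (1.26 to 4.41, binomial likelihood-ratio p = 0.0075). Without run C this ratio was 2.05 and did not pass (0.437 to 9.61, binomial likelihood-ratio p = 0.38). Microhomology was present in 12.8%, 19.6% and 13.7% of polyA joins in BRCA1del and in 14.7% and 43.8% in BRCA1flox (odds ratio 0.935, 0.588 to 1.49, stratified exact test, adjusted p = 0.82). The odds ratio was 1.41 in run C and 0.208 in run D, where it passed (exact test, adjusted p = 0.0033), and the runs differed (binomial likelihood-ratio p = 0.00042). The BRCA1flox library of run D was the highest here too, with 14 of 32 joins, so its high share was seen in both regions.

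Of the 20 shares, 13 passed, 7 of the 13 planned and 6 of the 7 added after the data were seen. The shares are not independent of each other, as for the array and left-of-array shares. Libraries that did not overlap were not limited to shares that passed. They did not overlap for shared stretches of at least 4 bp either (stratified exact test, adjusted p = 0.15). The same held for microhomology of at least 2 bp and for losses over 10 bases, which rest on run D. The odds ratio differed between runs C and D in 5 of 20 at an unadjusted p under 0.05.

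The series holds the same genotypes with siRNA against BLM (a RecQ helicase), BRCA1 and FANCM (a fork-remodelling translocase), in the same runs C and D, and 4 shares of array joins were set beside the siLuciferase ones. With siLuciferase the rightward odds ratio was 6, and the values for siBLM, siBRCA1 and siFANCM were 1.92, 2.20 and 0.949. The siLuciferase odds ratio was 3.36 times that of the other 3 together (1.62 to 7, binomial likelihood-ratio p = 0.00052, adjusted p = 0.0014 over 11 such tests). The BRCA1flox siLuciferase libraries had the lowest rightward shares of all, 1.84% and 1.29%, against 4.72% to 11.1% in the other 6 BRCA1flox libraries. The BRCA1del siLuciferase libraries, at 7.78% and 13.8%, lay inside the range of the other 6 BRCA1del libraries (4.23% to 18.4%).

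The odds ratios for whole bait ends were 4.05, 2.32, 2.12 and 0.816 in the same order of siRNAs, and they differed between siRNAs (binomial likelihood-ratio p = 4.7e-06, adjusted p = 2.6e-05). In BRCA1flox the share was 4.29% and 3.87% with siLuciferase in runs C and D. It was 9.39% and 2.8% for siBLM. For siBRCA1 the values were 7.99% and 5.56%, and siFANCM gave 18.5% and 12.4%. The siLuciferase values thus lay above the lowest of these, siBLM in run D, and the siFANCM values were the highest. In BRCA1del the shares were 13.3% and 19.4%, 17.1% and 12.7%, 15% and 12.6%, and 15.8% and 9.86% in the same order.

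Losses over 50 bp had odds ratios of 0.412, 0.302, 0.692 and 0.697 in that order, and they differed between siRNAs (binomial likelihood-ratio p = 0.018, adjusted p = 0.028). Blunt joins had odds ratios of 2.02, 3, 1.57 and 2.07 in the same order, and a difference between siRNAs did not pass (binomial likelihood-ratio p = 0.18, adjusted p = 0.22). For blunt joins the siLuciferase odds ratio was 0.975 times that of the other 3 together (0.629 to 1.51).

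**Figure D5:**
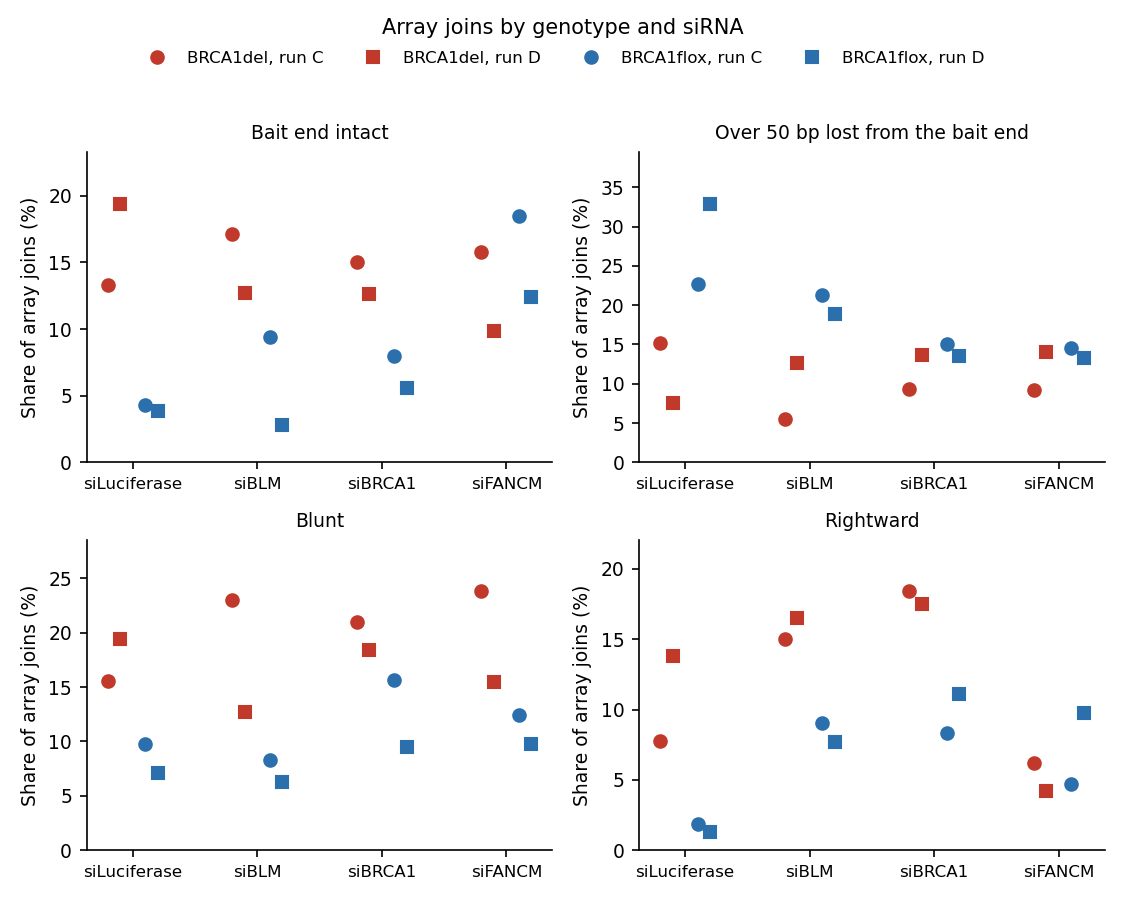
Shares of array joins (percent) with a whole bait end, over 50 bp lost, a blunt join or a rightward orientation, by siRNA and genotype. Each point is 1 library of run C or D. The siLuciferase BRCA1flox points are lowest in the rightward panel (1.84% and 1.29%), and in the blunt panel the BRCA1del point is higher than the BRCA1flox point of the same siRNA and run in all 8 pairs.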

How the data were processed

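Per the labels' protocols, DNA was collected from mouse ES cells after 48 h, sonicated, blocked with XbaI and sequenced on a MiSeq. The submitters' processing notes list the aligner Bowtie2 and the build mm9, with no role for either, and duplicate removal is not given in the sources used here. Each deposited table holds the junctions of a group, with the place of each in the cassette, its strand, its span and its read. The tables pool replicates, and the run in the read name was taken as the library.

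The cassette was rebuilt by voting over 5 passes. Ter, I-SceI, EGFP and XbaI sequences were found in it by exact match, and the array window runs from the first repeat to the I-SceI site. The bait was extended from a 10-bp seed and the prey from a 12-bp seed, and structure was called for 1424 of 1425 and 1181 of 1181 junctions. The caller and the exact test were tested on simulated data.

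Shares were compared by an exact conditional test of a common odds ratio over runs C and D (two-sided, threshold 0.05 after Benjamini-Hochberg adjustment). Differences of odds ratios were tested by logistic likelihood ratio with run as a term. Intervals are Wilson (shares) or exact (odds ratios), at 95%, and cover counting error only, since amplified reads are not independent molecules. Nothing in the labels says that replicates were separate cultures, so differences between libraries may be technical. Named positions are the 5 most used of each genotype in the array and the 3 most used elsewhere, and named microhomologies the 5 most used of each genotype. Those of at least 6 bp were added after their values were seen. The members, windows and tests were chosen with earlier results of these data known, and 7 shares, the siRNA comparisons and the distance limits of 100 bp were added after the values were seen. Python 3.11.15, scipy 1.17.1 and statsmodels 0.14.6 were used.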

Additional observations from a re-analysis of the deposited data

Results flagged for a closer look

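Groups of 2 and 3 libraries are too small for a test of outlying samples. The results below were singled out because the effect of genotype differed between 2 regions of the cassette or between siRNAs, by a likelihood-ratio test of a binomial logistic model on the difference itself. All of them cover counting error only. The genotype odds ratio for blunt joins was larger in the array than in the polyA region (ratio 2.36, binomial likelihood-ratio p = 0.0075, and p = 0.38 without run C), and that for whole bait ends likewise (ratio 5.38, p = 4.4e-08).

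Between the 4 siRNAs the genotype odds ratio differed for whole bait ends (binomial likelihood-ratio p = 4.7e-06), for losses over 50 bp (p = 0.018) and for rightward array joins (p = 0.00072). The siLuciferase odds ratio exceeded that of the other 3 siRNAs together for whole bait ends (ratio 2.66, binomial likelihood-ratio p = 0.00023) and for rightward joins (ratio 3.36, p = 0.00052). Of 11 such tests, 7 had an adjusted p at or under 0.05. For rightward joins the 2 BRCA1flox siLuciferase libraries had the lowest shares of the 8 BRCA1flox libraries of runs C and D, the only runs compared. For whole bait ends they did not, since siBLM run D was lower (2.8%), and the 2 siFANCM libraries were the highest (18.5% and 12.4%).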

How the results depend on the processing

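Over 22 results, 165 alternatives were computed, of which 127 kept direction and side of the threshold. The cause of the changes below was not tested. Fewer joins enter where positions are counted once or a run is left out. No paired analysis was possible because the tables carry no replicate number, and runs shared by both genotypes served as strata. Leaving out run C or run D gave odds ratios from 0.270 to 0.948 for microhomology, 0.420 to 0.938 for at least 4 bp, 0.694 to 1.26 for insertions, 0.701 to 1.30 for long insertions, 0.507 to 0.9 for bait-end loss over 10 bp and 0.638 to 1.05 for joins up to Ter element 3. In polyA joins the ranges were 0.773 to 1.53 for blunt, 0.208 to 1.41 for microhomology and 0.716 to 1.03 for whole bait ends, and the blunt ratio of array to polyA was 2.05 to 2.20, which did not pass without run C. With each position and orientation once, blunt array joins gave 1.62, insertions 1.49, bait-end loss 0.727, joins up to Ter element 3 1.02, joins up to Ter element 1 1.53 (no longer passing) and polyA microhomology 1.16. Pooled over all runs, insertions gave 0.640 and long insertions 0.507, both passing, and joins up to Ter element 3 1.07. Array microhomology gave 0.825 in joins that lost 1 base or more and 0.847 from 1 bp, and from 6 bp the odds ratio was 1.12. Bait-end loss gave 0.758 over the Ter span, 0.799 in placed reads and 0.762 with shared bases given to the prey. PolyA microhomology gave 1.13 from 1 bp, 1.06 from 3 bp and 1.15 without the 4 most used positions. Joins with 1 shared base no longer passed over the Ter span (1.44) or with 1 base or more lost (1.39). Rightward joins over the whole body gave 1.19, joins up to the end of Ter element 1 in place of Ter element 3 gave 1.79, and microhomology in place of blunt joins gave a ratio of array to polyA of 0.690. Junction numbers limit run D most, with 248 and 253 junctions.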
